A study of Mus musculus with 6 samples.

Results

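The 10 genes described here belong to the liver X receptor and cholesterol efflux system: Abca1, Abcg1, Nr1h3, Nr1h2, Apoe, Apoc1, Apoc2, Mylip, Soat1 and Nceh1. They were taken by symbol from the 46078 gene rows of a count table made from polyadenylated RNA of mouse alveolar macrophages, the phagocytes that reside in the air sacs, after sorting. Each symbol matched 1 row, and all 10 passed the filter on low counts. Car4fl/fl-CD11cCre mice (3 mice, untreated) were homozygous for a loxP-flanked allele of Car4, the gene of the membrane-anchored carbonic anhydrase 4, and carried a Cre transgene under CD11c, an integrin chain whose gene is Itgax. Car4fl/fl mice (3 mice, untreated) were homozygous for the same floxed allele without the Cre and served as controls. The question addressed is how the loss of Car4 from cells that make CD11c alters the macrophage's RNA. The Cre was not present without floxed alleles in any group, so an effect of the transgene and the loss of Car4 cannot be told apart. CD11c is also made by dendritic cells and other lung macrophages, so deletion by this Cre need not be limited to alveolar macrophages. The labels used here give no age, sex or strain.

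Macrophages take up and degrade lipoproteins, surfactant and dead cells, and cannot break down the sterol ring, so they either store cholesterol as esters or export it. The liver X receptors are nuclear receptors that bind oxysterols as heterodimers with the retinoid X receptors and switch on export genes when sterol accumulates. Alveolar macrophages clear surfactant, which is rich in phospholipid and cholesterol, and loss of this clearance is known to fill the cells with lipid. Of the members, Nr1h3 and Nr1h2 encode the receptors LXR alpha and LXR beta. Abca1 and Abcg1 encode the transporters that pass cholesterol to apolipoprotein A-I and to high-density lipoprotein. Apoe, Apoc1 and Apoc2 encode secreted apolipoproteins, Mylip encodes IDOL, a ubiquitin ligase that directs lipoprotein receptors to degradation, Soat1 esterifies cholesterol, and Nceh1 takes part in the hydrolysis of the esters.

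The response element that liver X receptors are known to bind is a direct repeat of AGGTCA separated by 4 bases, and Abca1 is the textbook example of a promoter that holds one. The 250 bases before its start (RefSeq, GRCm38.p6, minus strand, chr4:53159896-53160145) are shown because the stretch nearest to that motif lies in them, in capitals.
Abca1 promoter: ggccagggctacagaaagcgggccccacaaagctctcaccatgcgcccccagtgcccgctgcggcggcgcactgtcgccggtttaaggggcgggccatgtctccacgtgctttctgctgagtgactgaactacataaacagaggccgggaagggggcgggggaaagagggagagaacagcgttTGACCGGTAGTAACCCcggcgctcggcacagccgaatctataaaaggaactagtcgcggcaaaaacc

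The stretch in capitals was found by searching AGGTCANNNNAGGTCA on both strands of each 300-base window, from 250 bases before to 50 after a gene's start. It reads on the opposite strand, is centred 59 bases before the start and departs from the motif at 3 of 12 fixed bases. A match this close was present in 21.9% of 32851 mouse promoters in the RefSeq table. Of the 10 members 8 had a window in the table. The nearest stretches of the windows of 4 members are given on the strand of the gene, with the half-sites in capitals, to set Abca1 beside an apolipoprotein, a receptor and the ligase.
Abca1 stretch (minus strand, chr4:53159947-53159962): TGACCGgtagTAACCC
Apoe stretch (minus strand, chr7:19699166-19699181): TGCCCTgctgTGAAGG
Nr1h3 stretch (minus strand, chr2:91195151-91195166): GGCCGTgccgGGACCT
Mylip stretch (plus strand, chr13:45389770-45389785): GTAGCTcccgGGAACT
The Apoe stretch belongs to the window of its most upstream start and is centred 15 bases after that start. The windows of its other 2 starts held stretches with 4 mismatches as well. The Apoe and Nr1h3 stretches had 4 mismatches and the Mylip stretch 5, and windows with a match of at most 4 or at most 5 mismatches made up 76.9% and 99.8% of all promoters. Abca1 was therefore the only 1 of the 8 members whose window held a match within 3 mismatches. The exact half-site AGGTCA, on either strand, was present in 16.3% of all promoters and, among the members, in the Apoc2 window alone, which held it 2 times. This half-site is part of the longer motif, and a match describes the letters only.

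Sequencing depth was similar across libraries, with 53824475 to 65443314 counts in genes, and 3 counts corresponded to 0.0465 to 0.0557 CPM, counts scaled to library size. All 12 listed alveolar macrophage markers were above 1 CPM in every library, and 5 of them had a log2 fold change above and 7 below zero. Without Car4 and Chil3, by far the most abundant of them, their sum was 7869, 7750 and 7671 CPM in Car4fl/fl-CD11cCre against 7410, 6919 and 7027 CPM in Car4fl/fl macrophages. This sum includes Itgax, the gene of CD11c, so it does not describe the markers evenly. Itgax was at 2386, 2578 and 2350 CPM in Car4fl/fl-CD11cCre and at 1869, 1725 and 1484 CPM in Car4fl/fl macrophages, without overlap. The surface lectin gene Siglecf was at 592, 464 and 585 CPM in Car4fl/fl-CD11cCre and at 752, 663 and 708 CPM in Car4fl/fl macrophages, without overlap. Marco went the other way, at 469, 505 and 393 CPM in Car4fl/fl-CD11cCre and at 311, 296 and 280 CPM in Car4fl/fl macrophages. Of the 12 markers, 4 were higher and 3 lower in Car4fl/fl-CD11cCre without overlap, against 8.63% and 9.22% of all tested genes. Car4 itself was at 40.2, 46.9 and 36.3 CPM in Car4fl/fl-CD11cCre and at 499, 385 and 270.4 CPM in Car4fl/fl macrophages. On the log2 scale the difference was -3.23 ± 0.22 (SE), at an adjusted p of 0.0047 by the quasi-likelihood test of edgeR with Benjamini-Hochberg adjustment. Without Car4fl/fl replicate 2 the adjusted p was 0.0549, and over all alternatives it lay between 4.94e-29 and 0.0719. The number of genes called by edgeR depended on single libraries. Leaving out Car4fl/fl-CD11cCre library 1 moved it to 249 higher and 37 lower, against 1 and 1 with all libraries. Leaving out Car4fl/fl replicate 3 moved it to 15 and 52. Within Car4fl/fl-CD11cCre, the chi-square per degree of freedom was 57.6 between libraries 1 and 2. It was 38.7 between libraries 1 and 3 and 36.6 between libraries 2 and 3. Each member below is therefore given library by library, and values without a single library stand beside the results that rest on it. Values are normalised CPM by the trimmed mean of M-values (TMM), listed in the order of replicates 1, 2 and 3, and log2 fold changes are Car4fl/fl-CD11cCre over Car4fl/fl.

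None of the 10 members passed the adjusted threshold of 0.05 in edgeR, where 0.0132% of 15147 tested genes did. At an unadjusted p under 0.05, Apoe was higher, against 6.54% of all genes in that direction, and Apoc1, Mylip and Nceh1 were lower, against 6.28% of all genes. DESeq2 called no member higher, against 2.37% of the 14547 genes to which it gave an adjusted p, and called Apoc1 and Mylip lower, against 1.51%. The 3 values of each genotype did not overlap for 4 members, Apoc1, Mylip, Nceh1 and Nr1h2, all lower in Car4fl/fl-CD11cCre, against 9.22% of all genes in that direction, and for no member higher, against 8.63%. The median log2 fold change of the members was -0.11, with 4 above and 6 below zero, beside a median of -0.0019 over all tested genes, of which 49.4% were above zero. The members were chosen with earlier results of these data known, so these counts describe them only.

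**Figure D1:**
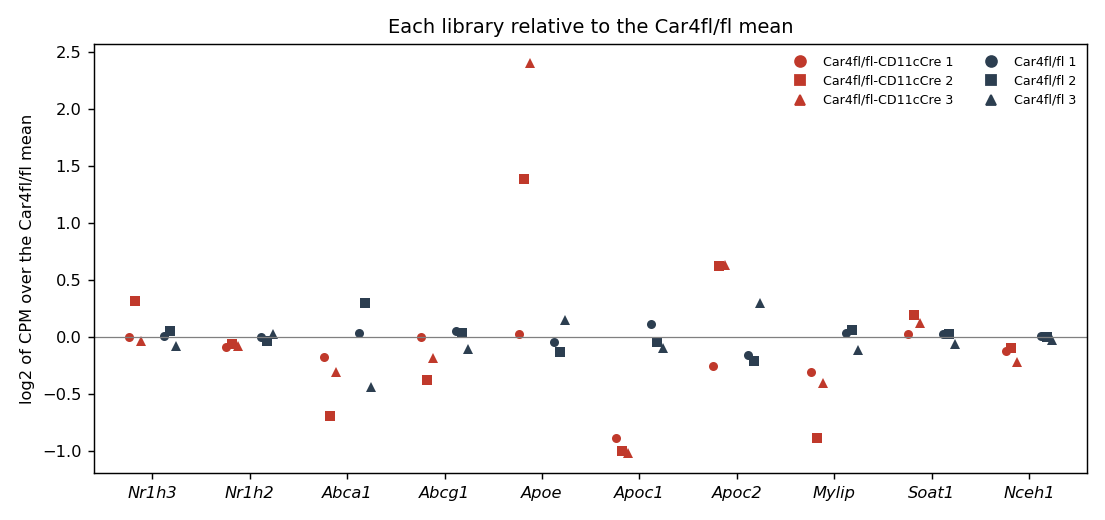
Each point is 1 library, as the log2 ratio of its CPM to the Car4fl/fl mean of that gene (y axis) for the 10 members (x axis), with Car4fl/fl-CD11cCre in red on the left and Car4fl/fl in dark blue on the right of each gene. Apoe reached 1.39 and 2.40 in Car4fl/fl-CD11cCre libraries 2 and 3 but 0.03 in library 1, whereas the 3 Apoc1 points of that genotype lay between -1.02 and -0.88.

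The receptors themselves differed little between the genotypes. Nr1h3 (ENSMUSG00000002108, chromosome 2, 91184061 to 91202834, minus strand, GRCm38) was at 56.8, 70.4 and 55.3 CPM in Car4fl/fl-CD11cCre and at 56.9, 58.8 and 53.7 CPM in Car4fl/fl macrophages. Library 2 of Car4fl/fl-CD11cCre was the highest and the other libraries of both genotypes overlapped. Its log2 fold change of 0.11 ± 0.09 (SE) had an adjusted p of 0.716 in edgeR, and without Car4fl/fl-CD11cCre replicate 2 it was -0.012. Nr1h2 (ENSMUSG00000060601, chromosome 7, 44549616 to 44553951, minus strand) was at 97.6, 99.2 and 97.7 CPM in Car4fl/fl-CD11cCre and at 103, 100.9 and 105 CPM in Car4fl/fl macrophages. The groups did not overlap, yet the difference was small, at -0.07 ± 0.04 (log2 fold change ± SE), where edgeR gave an adjusted p of 0.58. Its coefficient of variation, 0.924% in Car4fl/fl-CD11cCre and 2.00% in Car4fl/fl libraries, was the smallest of the members in Car4fl/fl-CD11cCre and the second smallest, after that of Nceh1 at 1.15%, in Car4fl/fl libraries. Rxra, the partner receptor and one of the most abundant genes of its list, averaged 350.5 ± 25.7 CPM in Car4fl/fl-CD11cCre and 378.5 ± 28.3 CPM in Car4fl/fl macrophages (SD, n = 3 each).

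Of the efflux transporters, Abca1 was the more variable, with a coefficient of variation of 17.8% in Car4fl/fl-CD11cCre and 24.8% in Car4fl/fl libraries. Abca1 (ENSMUSG00000015243, chromosome 4, 53030787 to 53159895, minus strand) was at 165, 115 and 151 CPM in Car4fl/fl-CD11cCre and at 191, 230 and 138 CPM in Car4fl/fl macrophages. Car4fl/fl replicate 3 was lower than Car4fl/fl-CD11cCre replicates 1 and 3, so the groups overlapped. Abca1 thus had a log2 fold change of -0.38 ± 0.19 (SE) at an adjusted p of 0.477 in edgeR. It was -0.56 without Car4fl/fl replicate 3 and -0.20 without Car4fl/fl replicate 2, and no alternative called it. Abcg1 (ENSMUSG00000024030, chromosome 17, 31057675 to 31117988, plus strand) was at 2728, 2098 and 2403 CPM in Car4fl/fl-CD11cCre and at 2828, 2799 and 2540 CPM in Car4fl/fl macrophages. Car4fl/fl-CD11cCre library 1 lay within the Car4fl/fl range and libraries 2 and 3 lay below it. For Abcg1 the log2 fold change came to -0.18 ± 0.10 (SE), and edgeR gave an adjusted p of 0.542, while the fold change was -0.28 without Car4fl/fl-CD11cCre replicate 1 and -0.09 without replicate 2 of that genotype.

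Among the apolipoproteins, Apoe and Apoc1, which are neighbours, differed in opposite directions. Apoe, Apoc1 and Apoc2 lie on the minus strand within 27.6 kb of chromosome 7. Apoe (ENSMUSG00000002985, 19696109 to 19699188) and Apoc1 (ENSMUSG00000040564, 19689481 to 19692660) are separated by 3448 bases. Apoe was at 97.4, 250.3 and 505 CPM in Car4fl/fl-CD11cCre and at 92.8, 87.4 and 106 CPM in Car4fl/fl macrophages. Libraries 2 and 3 of Car4fl/fl-CD11cCre were above every control, and library 1 lay inside the Car4fl/fl range. The mean was 284 ± 206 CPM in Car4fl/fl-CD11cCre and 95.5 ± 9.78 CPM in Car4fl/fl macrophages (SD, n = 3 each), so the coefficient of variation was 72.4% in Car4fl/fl-CD11cCre and 10.2% in Car4fl/fl libraries. A log2 fold change of 1.57 ± 0.49 (SE) resulted, at an adjusted p of 0.251 in edgeR and of 0.149 in DESeq2. Without Car4fl/fl-CD11cCre replicate 1 the log2 fold change was 1.98 and the adjusted p 0.0142 in edgeR. Without replicate 3 of that genotype they were 0.87 and 0.471, against an adjusted p of 0.0142 to 0.519 over all alternatives.

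Markers of interstitial macrophages, the tissue macrophages of the lung wall, moved with Apoe. Of the 12 listed markers 11 were matched by symbol. Their summed level was 16.1, 49.0 and 87.0 CPM in Car4fl/fl-CD11cCre and 11.1, 12.7 and 9.05 CPM in Car4fl/fl macrophages. In 8 of these 11 the fold change was above zero. For 6 of them the level was lowest in Car4fl/fl-CD11cCre library 1 and highest in library 3, as for Apoe, and no marker was at 0 in every library. Defining markers differed among themselves. Lyve1 did not follow Apoe and was at 1.84, 0.496 and 0.724 CPM in Car4fl/fl-CD11cCre and at 0.913, 1.26 and 1.41 CPM in Car4fl/fl macrophages. Folr2 was low throughout, at 0.101, 0.294 and 0.409 CPM in Car4fl/fl-CD11cCre and at 0.398, 0.416 and 0.334 CPM in Car4fl/fl macrophages. The part of these cells in the Apoe result was not tested. In sorted bulk RNA, more cells of a type and more RNA per cell cannot be told apart. The 10 listed monocyte markers summed to 705, 596 and 667 CPM in Car4fl/fl-CD11cCre and to 726, 810 and 849 CPM in Car4fl/fl macrophages, so they did not follow Apoe. The 8 lymphocyte markers did follow it in order, at low levels: they summed to 7.40, 8.89 and 11.8 CPM in Car4fl/fl-CD11cCre and to 7.72, 5.94 and 7.39 CPM in Car4fl/fl macrophages. Within Car4fl/fl-CD11cCre 5 of these 8 were lowest in library 1 and highest in library 3, none was at 0 in every library, and their part in the Apoe result was not tested.

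**Figure D2:**
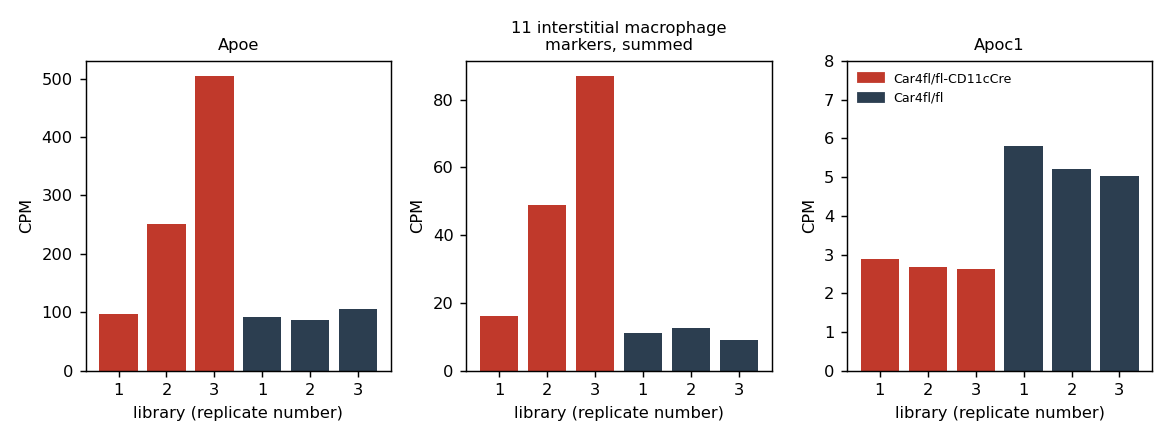
Bars give the CPM of 1 library each (y axes start at 0 and differ between panels) for Apoe, for the sum of 11 interstitial macrophage markers and for Apoc1, with the 3 Car4fl/fl-CD11cCre libraries in red left of the 3 Car4fl/fl libraries in dark blue. Apoe and the marker sum were both lowest in library 1 and highest in library 3 of Car4fl/fl-CD11cCre, while Apoc1 was at 2.89, 2.68 and 2.64 CPM in the same libraries.

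Apoc1, which encodes a small exchangeable apolipoprotein, was at 2.89, 2.68 and 2.64 CPM in Car4fl/fl-CD11cCre and at 5.79, 5.20 and 5.02 CPM in Car4fl/fl macrophages. These levels rest on 171, 173 and 142 counts in Car4fl/fl-CD11cCre and on 349, 313 and 285 counts in Car4fl/fl libraries. Every Car4fl/fl-CD11cCre value lay below every Car4fl/fl value, library 1 included. The mean was 2.74 ± 0.14 CPM in Car4fl/fl-CD11cCre and 5.34 ± 0.41 CPM in Car4fl/fl macrophages (SD, n = 3 each). In log2 terms this was -0.96 ± 0.12 (SE), which corresponds to a level 48.7% lower. Apoc1 had the smallest adjusted p of the members, 0.119 in edgeR, and an adjusted p of 1.69e-06 in DESeq2. Without Car4fl/fl-CD11cCre replicate 1 the adjusted p was 0.0181 and without Car4fl/fl replicate 3 it was 0.0474 in edgeR, within a range of 1.69e-06 to 0.462 over all alternatives.

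Apoc2 (ENSMUSG00000002992, chromosome 7, 19671579 to 19677941), the cofactor of lipoprotein lipase, was the least abundant member. It had 22, 44 and 37 counts in Car4fl/fl-CD11cCre and 24, 23 and 31 counts in Car4fl/fl libraries. The levels were 0.372, 0.682 and 0.687 CPM in Car4fl/fl-CD11cCre and 0.398, 0.382 and 0.546 CPM in Car4fl/fl macrophages, and they overlapped. At a log2 fold change of 0.39 ± 0.33 (SE), edgeR gave an adjusted p of 0.697, so no difference was detectable at this depth. Single libraries moved this value: it was 0.62 without Car4fl/fl-CD11cCre replicate 1, 0.26 without replicate 2 and 0.26 without replicate 3 of that genotype, at adjusted p of 0.414 to 0.901 in edgeR. In the GENCODE M21 annotation 646 exon bases of Apoc2 are shared with the read-through gene Gm44805 on the same strand. Gm44805 has no row of its own among the counted genes, so no reads were assigned to it there.

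The ligase and the enzymes of cholesterol esters completed the set. Mylip (ENSMUSG00000038175, chromosome 13, 45389742 to 45412022, plus strand) was at 78.4, 52.5 and 73.3 CPM in Car4fl/fl-CD11cCre and at 99.3, 101 and 89.8 CPM in Car4fl/fl macrophages. All Car4fl/fl-CD11cCre values lay below the Car4fl/fl values, and library 2 was the lowest. Mylip had a log2 fold change of -0.51 ± 0.14 (SE), a level 29.6% lower, at an adjusted p of 0.195 in edgeR and of 0.00917 in DESeq2 (0.00917 to 0.479 over all alternatives).

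Soat1 (ENSMUSG00000026600, chromosome 1, 156424525 to 156474331, minus strand), the acyltransferase that esterifies cholesterol in the endoplasmic reticulum, was at 361, 404 and 386 CPM in Car4fl/fl-CD11cCre and at 361, 360 and 338 CPM in Car4fl/fl macrophages. Libraries 2 and 3 of Car4fl/fl-CD11cCre were above the Car4fl/fl range and library 1 lay at its upper end. Soat1 had a log2 fold change of 0.12 ± 0.06 (SE), for which edgeR gave an adjusted p of 0.476. Nceh1 (ENSMUSG00000027698, chromosome 3, 27182965 to 27284608, plus strand), the neutral cholesterol ester hydrolase, was at 983, 1004 and 919 CPM in Car4fl/fl-CD11cCre and at 1078, 1074 and 1055 CPM in Car4fl/fl macrophages. The groups did not overlap, and edgeR gave -0.14 ± 0.06 (log2 fold change ± SE) at an adjusted p of 0.369.

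**Figure D3:**
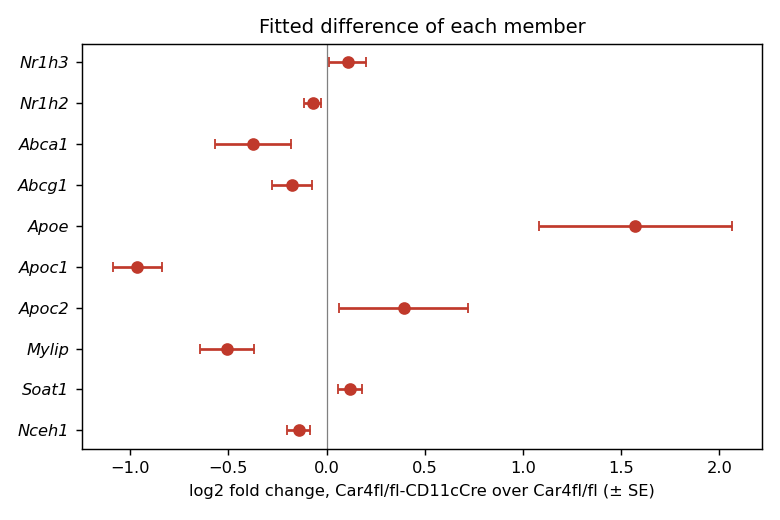
Points give the edgeR log2 fold change of each member (x axis, Car4fl/fl-CD11cCre over Car4fl/fl, 3 libraries each) and bars its standard error, with the members down the page in the order receptors, transporters, apolipoproteins, ligase and esterification enzymes. Apoe at 1.57 and Apoc1 at -0.96 lie farthest from zero, and the error bar of Apoe, 0.49, is the widest.

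Per length of exon, the members spanned a wide range of levels. Dividing CPM by the kilobases of exon joined over all isoforms, Abcg1 was the highest in both genotypes, at 330.2 ± 43.1 in Car4fl/fl-CD11cCre and 373 ± 21.7 in Car4fl/fl macrophages (CPM per kilobase, SD, n = 3 each). Nceh1 followed at 184 ± 8.41 in Car4fl/fl-CD11cCre and 204 ± 2.35 in Car4fl/fl macrophages. Apoe ranked next, at 45.5 to 236 CPM per kilobase in Car4fl/fl-CD11cCre libraries, where its range overlapped that of Nceh1, and at 40.9 to 49.7 in Car4fl/fl libraries, where it did not. Soat1, Nr1h2, Mylip, Nr1h3 and Abca1 had means between 13.9 and 39.2 CPM per kilobase in Car4fl/fl-CD11cCre and between 18.0 and 36.1 in Car4fl/fl macrophages. Within this group Nr1h2 and Mylip could not be ordered in Car4fl/fl libraries, nor Nr1h3 and Abca1, because their ranges overlapped, and in Car4fl/fl-CD11cCre libraries Nr1h3 and Mylip overlapped. Apoc1 was at 3.68 ± 0.18 in Car4fl/fl-CD11cCre and 7.17 ± 0.55 CPM per kilobase in Car4fl/fl macrophages, and Apoc2 was lowest, at 0.714 ± 0.22 in Car4fl/fl-CD11cCre and 0.544 ± 0.11 in Car4fl/fl macrophages.

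**Figure D4:**
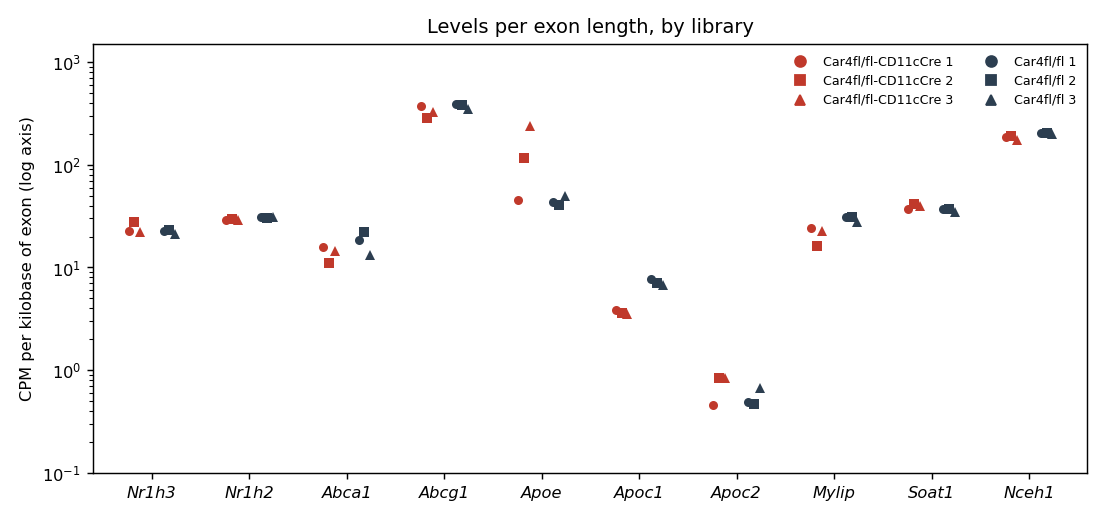
Each point is the level of 1 library in CPM per kilobase of exon (y axis, log scale) for the 10 members (x axis), with Car4fl/fl-CD11cCre in red on the left and Car4fl/fl in dark blue on the right of each gene. Abcg1 lies at the top in both genotypes with libraries close together, Apoe is spread from 45.5 to 236 in Car4fl/fl-CD11cCre, and Apoc2 lies below 1 in every library.

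The genes with profiles nearest to Apoe and Apoc1 were found among 11618 others with a mean of at least 1 CPM, by the root mean square difference of mean-centred log2(CPM + 0.5) over the 6 libraries. Nearest to Apoe were Matk, Mcf2l, Cd38, Igfbp6 and Irg1, at distances of 0.113 to 0.255 log2 units. Matk was at 1.15, 4.51 and 8.53 CPM in Car4fl/fl-CD11cCre and at 0.963, 1.05 and 1.23 CPM in Car4fl/fl macrophages, with an adjusted p of 0.211 in edgeR. Nearest to Apoc1 were Tppp3, Mgst3, Thbs3, Gcm2 and Eif5a2, at 0.0667 to 0.156 log2 units. Tppp3 was at 210.5, 188 and 168 CPM in Car4fl/fl-CD11cCre and at 353, 320 and 315 CPM in Car4fl/fl macrophages, with an adjusted p of 0.104 in edgeR. None of these 10 genes lies on chromosome 7 with Apoe and Apoc1.

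Other genes of the pathway were read from 9 lists, and edgeR called none of their members at the adjusted threshold. Among 15 tested genes known as targets of liver X receptors, 8 were above and 7 below zero, with a median log2 fold change of 0.02. At an unadjusted p under 0.05 in edgeR the list held 2 higher and 5 lower genes, against 6.54% and 6.28% of all tested genes. Lpcat3 and Lpl were among the 5. Fasn and Acsl3, both of fatty acid metabolism, had log2 fold changes of 0.34 and 0.59. DESeq2 called 2 of the list higher and 0 lower, against 2.37% and 1.51% of the genes to which it gave an adjusted p. Lpcat3, the phospholipid-remodelling acyltransferase that liver X receptors induce, averaged 127 ± 11.2 CPM in Car4fl/fl-CD11cCre and 155 ± 14.4 CPM in Car4fl/fl macrophages (SD, n = 3 each), with an adjusted p of 0.248 in edgeR. Lpl and Plin2, the most abundant of the list, had log2 fold changes of -0.38 and -0.03. Of 12 tested receptor partners and co-regulators none reached an unadjusted p under 0.05 and DESeq2 called 0. Gps2, a subunit of co-repressor complexes, and Ncoa2, a co-activator, had log2 fold changes of -0.08 and -0.19.

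Most uptake and synthesis genes lay on the higher side. Over all tested genes, 49.4% were above zero, an unadjusted p under 0.05 was reached by 6.54% on the higher and 6.28% on the lower side, and DESeq2 called 2.37% higher and 1.51% lower. Of 12 tested uptake genes 9 were above zero, at an unadjusted p under 0.05 the count was 4 on the higher and 0 on the lower side, and DESeq2 called 3 and 0, with a median log2 fold change of 0.08. The scavenger receptors Msr1 and Cd36 had the smallest p, with log2 fold changes of 1.29 and 0.37, while the abundant Lrp1 and Sort1 were at -0.08 and -0.03. Of 18 tested sterol synthesis and sensing genes 17 were above zero, with a median of 0.42. At an unadjusted p under 0.05 this list held 16 higher genes and 1 lower gene, and DESeq2 called 12 and 0. Idi1, Cyp51 and Sc5d had log2 fold changes of 0.63, 0.58 and 0.68, and the abundant Hmgcs1 and Srebf2 of 0.50 and 0.24. Of 21 tested genes of lysosomal and intracellular sterol transport 18 were above zero, with a median of 0.07, and at an unadjusted p under 0.05 the counts were 2 higher and 0 lower, with 1 called higher by DESeq2. Stard4, Osbpl11 and Tmem97 were at 0.49, 0.16 and 0.24, and the abundant Lamp1 and Lipa, the lysosomal acid lipase, at 0.04 and 0.07.

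Lists of genes that resemble or neighbour the members differed in direction from one another. Of 16 tested ABC transporters of lipids 10 were above zero, at an unadjusted p under 0.05 there were 3 on each side, and DESeq2 called 0. Abcg3, Abcg2 and Abcb1b had log2 fold changes of 1.82, 0.41 and 1.20, of which Abcg3 and Abcb1b were below 1 CPM in every library, and the abundant Abca2 and Abcd2 were at -0.19 and 0.07. Of 12 tested apolipoproteins and lipoprotein enzymes 3 were above zero, with Clu, Pnpla2 and Apom at 1.16, 0.14 and -0.82 and the abundant Apobr at -0.05. At an unadjusted p under 0.05, 2 of these were higher and 0 lower, and DESeq2 called 1 higher. Among 7 tested genes next to Apoe on chromosome 7, 1 was above zero and the median was -0.05. Tomm40 and Clptm1, the most abundant, were at -0.03 and -0.05, and Zfp296, Bcl3 and Relb, which had the smallest p, were at -0.49, 0.43 and -0.10. DESeq2 called 0 of them, and 1 was lower at an unadjusted p under 0.05. Of 7 tested oxysterol and bile acid genes 5 were above zero, with a median log2 fold change of 0.26. Dhcr7, which also serves cholesterol synthesis, was at 0.42, and Sult2b1 and Hsd3b7 were at -0.63 and -0.22. At an unadjusted p under 0.05 that list held 2 higher and 2 lower genes, and DESeq2 called 2 and 0.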

How the data were processed

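RNA from 6 sorted alveolar macrophage libraries, 3 per genotype, was prepared with the RNeasy Plus Micro kit and poly(A) capture, per the labels' protocols. The authors deposited whole-number counts per gene, not normalised. Tools in the submitters' processing notes include STAR 2.6.1, featureCounts 1.6.4 and cutadapt 2.5, with the build GRCm38 and no stated roles. The sources used here give neither the annotation nor the strand setting, so overlapping and antisense reads cannot be told apart.

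Each column was matched to its mouse by the library name in that sample's label. Counts were analysed in R 4.3.3 with edgeR 4.0.16: filterByExpr (minimum count 10, 15147 genes left), TMM factors, glmQLFit and a two-sided glmQLFTest without covariates, with Benjamini-Hochberg adjustment over all tested genes and a threshold of 0.05. Standard errors were derived from the fold change and its F statistic. Alternatives were other scalings, DESeq2 1.42.0, limma-voom (limma 3.58.1), other filters, robust and newer dispersion settings, a replicate block, an adjusted p of 0.1 and leaving out each library. The newer setting was chosen after seeing the data. Counts were simulated for 15147 genes, with 50 genes changed at each of 1.5, 2, 4 and 8-fold, all with a mean of at least 1 CPM. There edgeR recovered 58% of genes changed 1.5-fold and 88% of those changed 2-fold, with 13 false calls among 186. The real fit called 2 genes. The adjusted threshold is stricter where fewer genes change, so these shares do not apply to the members. The chi-square per degree of freedom between libraries of a genotype was 21.7 to 57.6, so no pair was counted as 1 library. The labels do not say more of how mice were housed or batched, so p-values measure the spread between these libraries.

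The members and lists were chosen with earlier results of these data known. Genes named beyond the members and Car4 were, per list, the 3 of smallest p and the 2 most abundant, and the 5 nearest profiles of Apoe and Apoc1. Some genes that this rule names are not reported here. Folr2, Lyve1, Siglecf, Itgax, Marco, Chil3, Epcam and Cdh1 were chosen after their values were seen. Neutrophil, dendritic, epithelial, lymphocyte and red cell marker lists were summed too. Coordinates and exon lengths come from GENCODE M21 and promoters from RefSeq (GRCm38.p6). Floors of 3 counts cover counting error only.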

Additional observations from a re-analysis of the deposited data

How the results depend on the processing

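The numbers of genes called by edgeR, 1 higher and 1 lower in Car4fl/fl-CD11cCre, and of members called, 0, depended on the test and on single libraries. DESeq2 called 345 higher, 219 lower and 2 members, and edgeR without a low-count filter called 340, 183 and 3 (Apoe, Apoc1 and Mylip, adjusted p 0.0279, 0.00469 and 0.0209). With robust dispersions 0 genes were lower. The replicate block gave 8 higher, 2 lower and 0 members. Same-numbered libraries did not deviate together (r of -0.0098, -0.16 and 0.069), so the numbers are not used as pairs. Leaving out 1 library gave 1 to 249 genes higher, 0 to 52 lower and 0 to 2 members. The members called were Apoe and Apoc1 without Car4fl/fl-CD11cCre replicate 1 (249 higher, 37 lower) and Apoc1 without Car4fl/fl replicate 3 (15 and 52). Other scalings, limma-voom and an adjusted p of 0.1 called 0 members. The direction of 9 members was the same under every alternative in which they were tested, and Nr1h3 ran from -0.012 without Car4fl/fl-CD11cCre replicate 2 to 0.17 without replicate 3 of that genotype. Apoc2 failed the stricter filter. The causes were not tested.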

Other observations

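Ratios between members within a library, chosen after their values were seen, are given without a test. The ratio of Soat1 to Nceh1, ester formation to ester hydrolysis, in CPM per kilobase was 0.197, 0.216 and 0.225 in Car4fl/fl-CD11cCre and 0.18, 0.18 and 0.172 in Car4fl/fl libraries, so the groups did not overlap although Soat1 taken alone did. The ratio of Apoc1 to its neighbour Apoe was 0.0853, 0.0308 and 0.015 in Car4fl/fl-CD11cCre and 0.179, 0.171 and 0.136 in Car4fl/fl libraries, without overlap. The ratio of Abca1 to Abcg1 was 0.0426, 0.0387 and 0.0441 in Car4fl/fl-CD11cCre and 0.0477, 0.0578 and 0.0382 in Car4fl/fl libraries, and the groups overlapped.

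Markers of other cell types were also summed per library. The 8 neutrophil markers summed to 103 to 111 CPM in Car4fl/fl-CD11cCre and 86.4 to 95.9 CPM in Car4fl/fl libraries, with Ly6g at 0 in all. The 8 dendritic cell markers summed to 7.59 to 11.1 CPM in Car4fl/fl-CD11cCre and 8.25 to 10.4 CPM in Car4fl/fl libraries. The 10 epithelial markers summed to 349 to 420 CPM in Car4fl/fl-CD11cCre and 374 to 465 CPM in Car4fl/fl libraries. Of these 10 markers 8 were above zero, and without Epcam, which was at 35.4, 15.99 and 22.6 CPM in Car4fl/fl-CD11cCre and at 156, 129 and 55.1 CPM in Car4fl/fl libraries, the sums were 333 to 384 CPM in Car4fl/fl-CD11cCre and 298 to 319 CPM in Car4fl/fl libraries. These sums still hold Cdh1, at 133, 140 and 156 CPM in Car4fl/fl-CD11cCre and at 105, 106 and 118 CPM in Car4fl/fl libraries. Cdh1 was the 1 marker of the 10 that was higher without overlap, and Epcam the 1 that was lower. Over all tested genes the shares were 8.63% and 9.22%. The 3 red cell genes summed to 2.10 to 5.90 CPM in Car4fl/fl-CD11cCre and 1.58 to 12.0 CPM in Car4fl/fl libraries. Apoe and these sums were not compared by a test.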
